A study of Mus musculus with 6 samples.

Results

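The 9 genes described here, *Cd79a*, *Cd79b*, *Ms4a1*, *Pax5*, *Ebf1*, *Cd22*, *Fcer2a*, *Cr2* and *Blk*, are used to recognise B lymphocytes, and were taken by name from the 55421 genes counted in each library. They were measured in RNA of splenic monocytes, in which B cells should be rare, so their level was read as that of B cell transcripts. Whether other cells of the preparations held a part of it was not tested. All 9 had enough reads for a test of the genotypes, among 13849 genes tested in all. The 6 libraries were made from 1 mouse each, all of the C57BL/6 strain, with 3 mice of the IL-4Rα+/+ genotype and 3 of IL-4Rα-/-, untreated as far as the labels tell, in a study that used animals of 8 to 16 weeks. IL-4Rα-/- mice lack the receptor chain for IL-4 and IL-13 in every cell, B cells included, so they are no model of a loss in monocytes alone. Monocytes were enriched from spleen by negative selection, in which antibodies and magnetic beads take out the other leukocytes. Polyadenylated RNA was sequenced, and the authors counted the reads on each gene. Levels are given as CPM, the counts of a gene per 1000000 reads on genes after scaling by edgeR's TMM factors, and levels of different genes are compared only as RPKM, which also divides by the length of the exons.

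B cells read antigen through a surface immunoglobulin whose signal is passed on by the CD79A and CD79B chains. The transcription factors EBF1 and PAX5 establish and hold the B cell programme, and CD79A and BLK are among the products that depend on it. CD23, the low affinity IgE receptor encoded by *Fcer2a*, is carried by follicular B cells, and IL-4 raises it through the transcription factor STAT6. *Fcer2a* is therefore the gene of this group for which a loss of IL-4Rα has a direct prediction, namely less transcript per B cell.

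The promoters of *Fcer2a* and *Cd22* are shown because they held the only matches to the motifs searched, and because *Fcer2a* is the IL-4 target of the group. The windows came from RefSeq on the GRCm38.p6 build and reach from 250 bases before a transcript start to 50 after it. Of the 9 genes, 6 had a window in the table, 9 windows in all. The letters searched on both strands were TTCNNNNGAA for STAT6, TCCCNNGGGA for EBF1 and the octamer ATGCAAAT bound by OCT factors, and these patterns do not contain each other. They occurred in 6.95%, 0.904% and 1.74% of the 32851 windows of all genes. Only the 250 bases before the start are printed, 5′ to 3′ on the minus strand, on which both genes lie, with the match in capitals.
Fcer2a, outermost start, chr8:3694175-3694424, no match: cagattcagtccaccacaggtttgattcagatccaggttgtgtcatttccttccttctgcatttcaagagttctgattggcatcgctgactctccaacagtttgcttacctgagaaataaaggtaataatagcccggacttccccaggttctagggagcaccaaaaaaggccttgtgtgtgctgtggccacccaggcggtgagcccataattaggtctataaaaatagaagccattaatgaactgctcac
Fcer2a, a start inside the gene, chr8:3690862-3691111, STAT6 letters: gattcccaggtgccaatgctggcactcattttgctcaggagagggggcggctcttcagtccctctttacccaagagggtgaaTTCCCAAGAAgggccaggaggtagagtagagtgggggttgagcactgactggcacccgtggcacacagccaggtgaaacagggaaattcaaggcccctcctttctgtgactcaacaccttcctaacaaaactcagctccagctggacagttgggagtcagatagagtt
Cd22, chr7:30879029-30879278, EBF1 letters: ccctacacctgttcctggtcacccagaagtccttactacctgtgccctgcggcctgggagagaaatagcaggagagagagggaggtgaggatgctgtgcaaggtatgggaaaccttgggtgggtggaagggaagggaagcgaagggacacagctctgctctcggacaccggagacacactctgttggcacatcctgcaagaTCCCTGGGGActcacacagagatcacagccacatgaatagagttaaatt
The STAT6 letters began 168 bases before the inner start of *Fcer2a*, and the EBF1 letters 49 bases before the RefSeq start of *Cd22*. That *Cd22* start also lies inside the gene, 1314 bases from the outermost start in Gencode. A match describes the letters in the window, and binding was not measured.

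IL-4Rα+/+ mouse 2 and IL-4Rα-/- mouse 3 stood apart, 1 in each genotype, as the libraries with the most B cell transcripts. Each library held 26807281 to 29033297 reads on genes. On the 9 genes together lay 1728, 2997 and 1075 reads in IL-4Rα+/+ mice 1, 2 and 3, and 1602, 1010 and 5125 reads in IL-4Rα-/- mice 1, 2 and 3. In CPM without the TMM factors this was 59.8, 108 and 40.1 in IL-4Rα+/+ and 58.1, 34.8 and 178 in IL-4Rα-/- libraries. The exact 95% binomial intervals of the latter ran from 104 to 112 in IL-4Rα+/+ mouse 2 and from 173 to 183 in IL-4Rα-/- mouse 3, and cover counting error only. Of the reads on the 9 genes, *Cd79b* and *Cd22* held 570 and 963 in IL-4Rα+/+ mouse 1, and 377 and 448 in IL-4Rα-/- mouse 2. They held 641 and 1020 in IL-4Rα+/+ mouse 2, and 1115 and 1196 in IL-4Rα-/- mouse 3. The targeted gene, *Il4ra*, had 137, 128 and 177 CPM in IL-4Rα+/+ and 27.9, 79.4 and 31.8 CPM in IL-4Rα-/- mice, so the ranges did not overlap, in the direction the labels call for, and transcript remained. Monocyte markers dominated all 6 libraries. *Csf1r*, the receptor for M-CSF, lay between 2227 and 3095 CPM, and *Lyz2*, which encodes lysozyme, between 8847 and 17025 CPM. In such bulk samples, more B cells and more RNA per B cell cannot be told apart.

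The signalling chains of the B cell receptor differed in how they varied. *Cd79a* (ENSMUSG00000003379.7, plus strand of chromosome 7 of GRCm38, 24897381 to 24902197) had 1.65, 8.86 and 1.81 CPM in IL-4Rα+/+ mice 1, 2 and 3, and 1.61, 1.33 and 19.2 CPM in IL-4Rα-/- mice 1, 2 and 3. The genotypes overlapped, since 4 libraries lay together near the bottom and the 2 high ones belonged to different genotypes. *Cd79b* (ENSMUSG00000040592.11, minus strand of chromosome 11, 106311341 to 106314762) had 20.03, 23.2 and 14.5 CPM in IL-4Rα+/+ and 20.7, 13.2 and 37.7 CPM in IL-4Rα-/- mice. The same libraries were highest, but *Cd79b* spanned 2.86-fold between the highest and the lowest library, against 14.4-fold for *Cd79a*. Both chains form 1 dimer in B cells, yet per exon length the median level over the libraries was 14.2 RPKM for *Cd79b* and 1.19 RPKM for *Cd79a*. In IL-4Rα-/- mouse 3, the library with the most reads on the 9 genes, these levels were 26.4 and 13.2 RPKM.

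Both transcription factors were low. *Pax5* (minus strand of chromosome 4, 44524757 to 44710487) had 0.703, 7.45 and 1.09 CPM in IL-4Rα+/+ and 0.857, 0.806 and 12.9 CPM in IL-4Rα-/- libraries. *Ebf1* (plus strand of chromosome 11, 44617317 to 45008091) was the gene with the fewest reads, at 12, 38 and 4 counts in IL-4Rα+/+ and 8, 6 and 117 counts in IL-4Rα-/- libraries. For both, mouse 2 of IL-4Rα+/+ and mouse 3 of IL-4Rα-/- were again the highest, and the other libraries overlapped. *Pax5* and *Ebf1* overlap annotated antisense genes, 3 and 1 of them, as do *Ms4a1* and *Cd22* with 1 each. The libraries kept the strand, but whether the counting used it is not given in the sources used here, so their counts may hold antisense reads.

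Among the surface proteins, *Ms4a1*, which encodes CD20, followed *Cd79a* closely. *Ms4a1* (minus strand of chromosome 19, 11249675 to 11266241) had 1.65, 9.04 and 1.77 CPM in IL-4Rα+/+ and 1.54, 1.02 and 21.3 CPM in IL-4Rα-/- mice. *Cr2* (minus strand of chromosome 1, 195136811 to 195176716) encodes the complement receptor CD21, which is abundant on marginal zone B cells and also found on follicular dendritic cells. It had 0.527, 8.43 and 1.62 CPM in IL-4Rα+/+ and 1.29, 1.09 and 16.3 CPM in IL-4Rα-/- mice, the widest span of the 9 genes at 30.9-fold. Of the follicular dendritic cell markers, *Cxcl13* lay between 0.710 and 1.96 CPM and *Madcam1* between 0.0701 and 0.457 CPM. *Pdpn* had 0 reads in 5 of the 6 libraries and 1 read in the other. *Cxcl13* was highest in IL-4Rα-/- mouse 1 and *Madcam1* in IL-4Rα+/+ mouse 1, not in the libraries with the most *Cr2*. Most of the level of the 6 markers listed lay on others. Their sum was 107, 100 and 116 CPM in IL-4Rα+/+ and 108, 147 and 116 CPM in IL-4Rα-/- libraries. The libraries with the most *Cr2* were the 2 highest for 0 of the 6, and the source of *Cr2* was not tested.

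*Cd22*, an inhibitory lectin of the B cell receptor, behaved like *Cd79b*. *Cd22* (minus strand of chromosome 7, 30865402 to 30880342) had 33.8, 36.9 and 17.6 CPM in IL-4Rα+/+ and 26.6, 15.7 and 40.5 CPM in IL-4Rα-/- libraries, a span of 2.58-fold. In the lowest library, IL-4Rα-/- mouse 2, its level per exon length was 3.11 RPKM, and that of *Cd79a* 0.913 RPKM. IL-4Rα+/+ mouse 3 and IL-4Rα-/- mouse 2 were the lowest libraries for both *Cd22* and *Cd79b*. They were also the lowest for *Treml4* and *Nr4a1*, markers of Ly6C low monocytes named here after their values were seen. *Treml4* had 566, 418 and 253 CPM in IL-4Rα+/+ and 436, 259 and 344 CPM in IL-4Rα-/- libraries, and a part of monocyte subsets in the level of *Cd22* and *Cd79b* was not tested. *Blk*, a Src family kinase of B cells (minus strand of chromosome 14, 63372836 to 63417037), had 1.12, 6.51 and 1.25 CPM in IL-4Rα+/+ and 3.82, 1.16 and 10.05 CPM in IL-4Rα-/- libraries. *Blk* was the exception among the low genes, with a raised value in IL-4Rα-/- mouse 1, in which *Cd79a*, *Ms4a1* and *Pax5* were low.

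**Figure D1:**
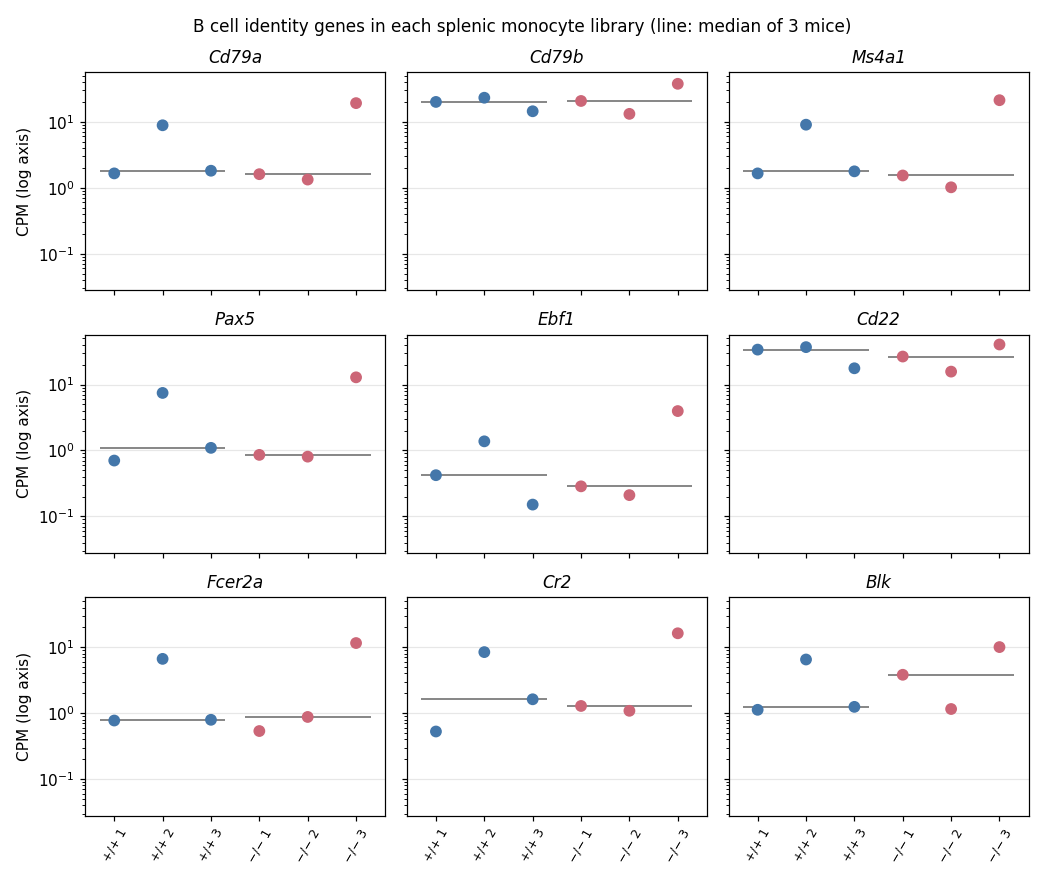
Level of each of the 9 genes in CPM (log axis, the same in every panel) in the 6 libraries, with IL-4Rα+/+ mice in blue, IL-4Rα-/- mice in red and a line at the median of the 3 mice. IL-4Rα+/+ mouse 2 and IL-4Rα-/- mouse 3 are the highest libraries in all 9 panels, with the smallest spread between libraries for *Cd79b* and *Cd22* and a value for *Blk* in IL-4Rα-/- mouse 1 that comes near them.

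Across the group, IL-4Rα+/+ mouse 2 and IL-4Rα-/- mouse 3 were the 2 highest libraries for 9 of 9 genes, a pattern seen in 6.56% of all genes tested. These libraries were singled out by the same 9 genes, so the count describes the group and is no test. IL-4Rα-/- mouse 3 was the highest for 9 of 9, and its CPM exceeded that of IL-4Rα+/+ mouse 2 by 1.10-fold for *Cd22* to 2.88-fold for *Ebf1*, with a median of 1.74-fold. The span between the highest and the lowest library was over 8-fold for 7 genes and under 3-fold for *Cd79b* and *Cd22*, against a median of 1.47-fold over all genes tested. By *Xist* and the Y chromosome genes IL-4Rα+/+ mouse 2 was male and IL-4Rα-/- mouse 3 female.

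Between the genotypes none of the 9 genes (0 genes) passed edgeR's quasi-likelihood test at the cutoff the study used, 0.15 for the adjusted p-value, which 0% of all 13849 genes passed. None (0 genes) had an unadjusted p-value under 0.05, against 8.09% of all genes, made up of 3.72% with a rise and 4.37% with a fall in IL-4Rα-/- libraries. None had separate ranges in the genotypes, against 15.5% of all genes. The log2 fold change was above 0 in 8 genes and below 0 in 1, *Cd22*, with a median of 0.76, where the median of all genes was 0.01. It ran from -0.10 for *Cd22* (standard error 0.40) to 1.19 for *Ebf1* (standard error 1.25), with adjusted p-values from 0.770 to 0.946 in edgeR's quasi-likelihood fit, adjusted after Benjamini and Hochberg. DESeq2, the tool of the study, called 0 of the 9 genes and 0.571% of all genes. It gave a p-value for 5 of them, with adjusted p-values of 0.848 to 0.970, and none for *Cd79a*, *Ms4a1*, *Pax5* and *Fcer2a*, as it does where a single library weighs too much on the fit.

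The direction of the fold changes rested on single libraries. For *Cd79a* the log2 fold change was 0.85 (standard error 1.17) with all 6 libraries, 2.09 without IL-4Rα+/+ mouse 2, and -1.48 without IL-4Rα-/- mouse 3. Without either of these libraries, a choice made after the data were seen, it was -0.24 (standard error 0.31). *Ms4a1* went in the same way from 0.93 to 2.21, -1.70 and -0.43, and *Pax5* from 0.65 to 2.43, -1.89 and -0.12. *Blk* kept a value above 0 without both, at 1.06, and *Cr2* at 0.14, while *Ebf1* had too few reads to be tested there. None of the 9 genes passed the threshold (0 genes) in any of these fits, and none had an unadjusted p-value under 0.05.

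**Figure D2:**
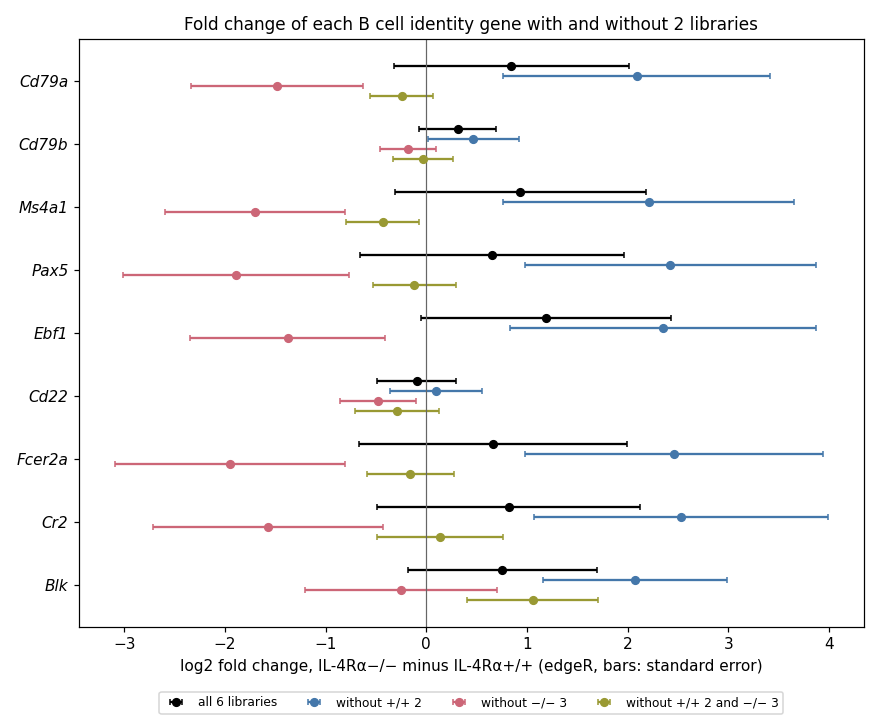
Log2 fold change of each gene, IL-4Rα-/- minus IL-4Rα+/+, from edgeR with its standard error as a bar, for all 6 libraries (black), without IL-4Rα+/+ mouse 2 (blue), without IL-4Rα-/- mouse 3 (red) and without both (olive). For *Cd79a*, the values are 0.85, 2.09, -1.48 and -0.24 in this order, so the side of 0 depends on which library is left out.

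*Fcer2a* (ENSMUSG00000005540.10, minus strand of chromosome 8, 3681737 to 3694175) was present in both genotypes. It had 22, 184 and 21 counts in IL-4Rα+/+ mice 1, 2 and 3, and 15, 25 and 342 counts in IL-4Rα-/- mice 1, 2 and 3. As levels these were 0.773, 6.66 and 0.793 CPM in IL-4Rα+/+ and 0.536, 0.876 and 11.6 CPM in IL-4Rα-/- libraries. The highest level of this IL-4 target was thus in a mouse without IL-4Rα, the one in which the other B cell genes were also highest. The log2 fold change was 0.66 (standard error 1.33, adjusted p = 0.875 by edgeR's quasi-likelihood test), 2.46 without IL-4Rα+/+ mouse 2, -1.95 without IL-4Rα-/- mouse 3 and -0.16 without both.

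Because the amount of B cell RNA differed so much between libraries, *Fcer2a* was also read against the other B cell genes of its own library. The difference between the log2 CPM of *Fcer2a* and the mean log2 CPM of the other 8 genes was -1.38, -0.42 and -1.34 in IL-4Rα+/+ mice 1, 2 and 3, and -2.14, -0.93 and -0.50 in IL-4Rα-/- mice 1, 2 and 3. The genotypes overlapped, and their means of -1.05 ± 0.54 (SD, n = 3) and -1.19 ± 0.85 (SD, n = 3) differed by -0.14, less than either SD. The difference between the genotypes was -0.07 when *Cd79a* alone was the reference, 0.03 with *Ms4a1* alone and 0.04 with 15 further B cell genes. These are descriptions without a test. The mean of the 8 genes includes *Cd79b* and *Cd22*, which varied little. Against it *Fcer2a* was highest in IL-4Rα+/+ mouse 2 and IL-4Rα-/- mouse 3, so this difference still varied with the amount of B cell transcripts.

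The share of *Fcer2a* in the reads on *Fcer2a* and *Cd79a* gives the same comparison with its counting error. It was 31.9%, 42.9% and 30.4% in IL-4Rα+/+ mice, out of 69, 429 and 69 reads, and 25.0%, 39.7% and 37.6% in IL-4Rα-/- mice, out of 60, 63 and 910 reads. In the libraries with the most reads, the exact 95% binomial intervals were 38.2% to 47.7% in IL-4Rα+/+ mouse 2 and 34.4% to 40.8% in IL-4Rα-/- mouse 3, and they overlapped. With *Ms4a1* as the partner the shares in these libraries were 42.4% (37.7% to 47.2%) and 35.2% (32.2% to 38.3%). Over the 8 possible partners the share was lower in IL-4Rα-/- mouse 3 for 4 (*Cd79a*, *Ms4a1*, *Ebf1* and *Cr2*) and higher for 4 (*Cd79b*, *Pax5*, *Cd22* and *Blk*). For *Pax5* the shares in these libraries were nearly equal, at 47.2% and 47.4%. The intervals lay apart for 1 partner, *Cd22*, with 13.3% to 17.4% in IL-4Rα+/+ mouse 2 and 20.2% to 24.4% in IL-4Rα-/- mouse 3. Against *Cd22* the share was 2.23%, 15.3% and 4.30% in IL-4Rα+/+ and 1.98%, 5.29% and 22.2% in IL-4Rα-/- mice. *Cd22* and *Cd79b* varied little between libraries, and the share against them was highest in the libraries with the most B cell transcripts. With these partners it is therefore no measure per B cell. Overlap of such intervals is no test of a difference, and the shares were not tested. Each genotype gave 1 library with many reads, so the intervals compare mice and not genotypes. The remaining 4 libraries had at most 25 reads of *Fcer2a* each, and a change per B cell by less than their intervals was not detectable there.

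**Figure D3:**
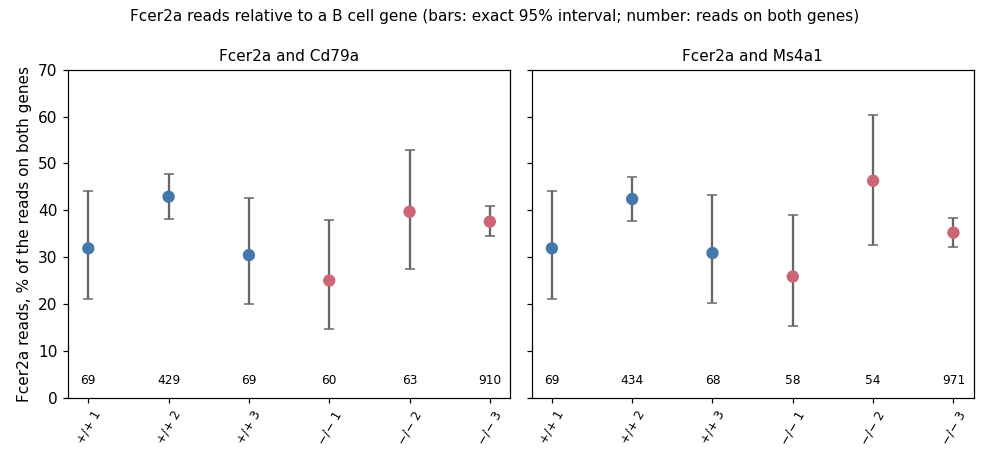
Reads on *Fcer2a* as a percentage of the reads on *Fcer2a* and *Cd79a* (left) or *Fcer2a* and *Ms4a1* (right) in each library, with exact 95% binomial intervals as bars, IL-4Rα+/+ in blue and IL-4Rα-/- in red, and the reads on both genes printed at the bottom. With *Cd79a* the points lie between 25.0% and 42.9%, and the genotypes overlap.

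Other genes with an IL-4 response in B cells were taken as a list of 10, all of which had enough reads in these libraries for a test. None passed the adjusted threshold (0 genes), and 2 had an unadjusted p-value under 0.05, *Il4ra* itself and *Cd86*, a costimulatory ligand. *Cd86* had 69.3 ± 6.78 CPM (SD, n = 3) in IL-4Rα+/+ and 101 ± 14.1 CPM (SD, n = 3) in IL-4Rα-/- libraries, with separate ranges, and DESeq2 called both genes. Over all genes 8.09% had an unadjusted p-value under 0.05, 15.5% had separate ranges and 0.571% were called by DESeq2. The class II genes *H2-Aa*, *H2-Ab1* and *H2-Eb1* had log2 fold changes of -0.36, -0.32 and -0.37 with overlapping ranges. Over the list 5 genes lay above 0 and 5 below, with a median log2 fold change of -0.14. Per exon length, the median level over the libraries was 21.9 RPKM for *Cd86* and 247 RPKM for *H2-Aa*, against 1.19 RPKM for *Cd79a*. Of the list, only *Cish* lay below *Cd79a*, at 0.12 RPKM. The paper reports the rise of *Cd86* for monocytes. Which cells the reads of the list came from was not tested, so they are no measure per B cell. The *Cd86* value of IL-4Rα-/- mouse 3, at 84.5 CPM, was the lowest of its genotype although its B cell genes were the highest, so the order of the IL-4Rα-/- mice was not that of the B cell genes.

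The 16 further B cell genes on a list, of which 15 could be tested, were split by their span between the highest and the lowest library. A span of over 5-fold was seen in 5 of them, *Fcmr*, *Tnfrsf13c*, *Cxcr5* and *Fcrla* among them. *Fcmr*, which encodes the receptor for IgM, had 0.808, 4.78 and 0.755 CPM in IL-4Rα+/+ and 0.357, 0.595 and 13.6 CPM in IL-4Rα-/- libraries. *Tnfrsf13c*, which encodes the BAFF receptor, had 2.42 CPM in IL-4Rα+/+ mouse 2, 5.58 CPM in IL-4Rα-/- mouse 3 and at most 0.527 CPM elsewhere. The other 10 spanned 5-fold or less. Among them *Tnfrsf13b*, the receptor TACI, lay between 59.1 and 85.1 CPM in all libraries, the adaptor *Stap1* between 53.0 and 175 CPM and *Bank1* between 31.3 and 66.2 CPM. A small span did not mean another order of the libraries. *H2-Ob*, *Siglecg*, *Ralgps2*, *Cd72*, *Pou2af1* and *Tnfrsf13b* were still highest in IL-4Rα+/+ mouse 2 and IL-4Rα-/- mouse 3, while *Spib*, *Bank1*, *Fcrl1* and *Stap1* were not.

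The 2 high libraries were the highest for 12 of these 16 genes, again against 6.56% of all genes. No gene of the list passed the test (0 genes), none had an unadjusted p-value under 0.05 with edgeR, and DESeq2 called 0. Above 0 lay 9 genes and below 0 lay 6, with a median log2 fold change of 0.09, which was 0.39 without IL-4Rα+/+ mouse 2, 0.33 without IL-4Rα-/- mouse 2, -0.58 without IL-4Rα-/- mouse 3 and -0.23 without both high libraries.

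Components of B cell receptor signalling that monocytes share did not swing. The 18 genes, with *Lyn*, *Ptpn6* and *Ptprc* as the most abundant, had a median span of 1.37-fold, and for 0 of them were the 2 high libraries the highest. Of these, 14 lay below 0 with a median log2 fold change of -0.10, and 4 had an unadjusted p-value under 0.05, *Prkcb*, *Ptprc*, *Cbl* and *Plcg2*, all lower in IL-4Rα-/- libraries, where 4.37% of all genes were. None passed the adjusted threshold (0 genes) with edgeR or DESeq2. *Prkcb*, a protein kinase C isoform, showed the largest of these differences, at 149 ± 29.8 CPM (SD, n = 3) against 105 ± 12.8 CPM (SD, n = 3), a log2 fold change of -0.51 (standard error 0.17).

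Genes of particular B cell stages gave further detail. Of the early B cell genes *Rag1*, *Rag2*, *Dntt*, *Igll1*, *Vpreb1* and *Vpreb2*, none had enough reads for a test (0 of 6), and their summed level was at most 0.941 CPM in any library. Of 7 marginal zone and B-1 cell genes, *Dtx1* and *Cd5* were highest in the same 2 libraries as the 9 genes, with *Dtx1* at 9.15 CPM in IL-4Rα+/+ mouse 2, 8.93 CPM in IL-4Rα-/- mouse 3 and at most 3.53 CPM elsewhere. *Cd9* was not, with its highest level of 157 CPM in IL-4Rα+/+ mouse 1. None of the 7 had an unadjusted p-value under 0.05 with edgeR (0 genes).

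Most plasma cell and immunoglobulin genes followed another pattern. Highest in the same 2 libraries as the 9 genes were 1 of 9 plasma cell genes, *Irf4*, and 3 of 12 immunoglobulin genes. The latter were *Ighd*, *Ighg3* and *Iglc2*, and 6.56% of all genes tested showed this. The median log2 fold changes of these lists were 0.06 and 0.73. In edgeR's test *Jchain*, *Igha* and *Iglc1* fell below an unadjusted p of 0.05, each higher in IL-4Rα-/- libraries, and 0 genes passed the adjusted threshold. *Jchain*, which joins secreted IgA and IgM, had 103, 132 and 101 CPM in IL-4Rα+/+ and 188, 171 and 120 CPM in IL-4Rα-/- libraries, with the lowest IL-4Rα-/- value in mouse 3. *Ighd*, the IgD of naive B cells, swung with the 9 genes, at 2.42, 12.7 and 1.70 CPM in IL-4Rα+/+ and 2.14, 1.05 and 24.8 CPM in IL-4Rα-/- libraries. *Ighm* had another order, with 455, 715 and 525 against 556, 514 and 476 CPM. *Igha* lay between 232 and 268 CPM in IL-4Rα+/+ and at 694, 569 and 439 CPM in IL-4Rα-/- libraries, so the ranges were separate. Its log2 fold change was 1.19 (standard error 0.17), with an adjusted p of 0.618 in edgeR and 2.81e-06 in DESeq2, which called it. *Iglc1* had separate ranges as well, with 9.91, 16.8 and 23.1 CPM in IL-4Rα+/+ and 31.8, 25.2 and 33.2 CPM in IL-4Rα-/- libraries. DESeq2 did not call *Iglc1*. The IL-4Rα-/- mouse with the most B cell transcripts had the least *Igha* of its genotype. Immunoglobulin genes share sequence with one another, and the split of their reads is uncertain.

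Transcripts of other lymphocytes were also higher in the libraries with the most B cell transcripts. The 2 libraries were the highest for 7 of 8 T cell markers and 5 of 5 NK cell markers. The summed level of the T cell markers was 86.2, 120 and 47.1 CPM in IL-4Rα+/+ and 90.8, 41.9 and 110 CPM in IL-4Rα-/- mice, and that of the NK cell markers 8.36, 20.4 and 6.27 against 12.4, 6.65 and 18.8 CPM. *Cd3e*, a chain of the T cell receptor complex, had 1.23, 6.51 and 1.36 CPM in IL-4Rα+/+ and 2.14, 1.12 and 6.36 CPM in IL-4Rα-/- libraries. The high libraries were thus near each other in T and NK cell genes, with a median ratio of IL-4Rα-/- mouse 3 to IL-4Rα+/+ mouse 2 of 0.993 and 0.929, whereas it was 1.74 for the 9 B cell genes. The part of a general lymphocyte admixture in the B cell levels was not tested.

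Plasmacytoid dendritic cells, which share several genes with B cells, were read from 6 markers. The same 2 libraries were highest for 4 of them, and *Ly6d*, which B cells also express, had 4.59 CPM in IL-4Rα+/+ mouse 2 and 10.4 CPM in IL-4Rα-/- mouse 3. *Bst2* and *Tcf4*, the most abundant of the list, spanned 1.41-fold and 1.28-fold. Of neutrophil and erythroid markers, the summed level was highest in IL-4Rα-/- mice 2 and 3, respectively. These sums were 50.6, 15.7 and 75.4 CPM in IL-4Rα+/+ against 157, 312 and 58.9 CPM in IL-4Rα-/- mice for neutrophils, and 49.2, 111 and 85.8 against 141, 148 and 349 CPM for erythroid cells. With edgeR 4 neutrophil and 5 erythroid markers had an unadjusted p-value under 0.05, all higher in IL-4Rα-/- libraries, where 3.72% of all genes were. None passed the adjusted threshold (0 genes), DESeq2 called 1 and 2 of them, and their part in the B cell levels was not tested. IL-4Rα-/- mouse 3 was the highest library for 6 of 6 erythroid markers, as for the 9 genes, but IL-4Rα+/+ mouse 2 was the second highest for none of them.

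**Figure D4:**
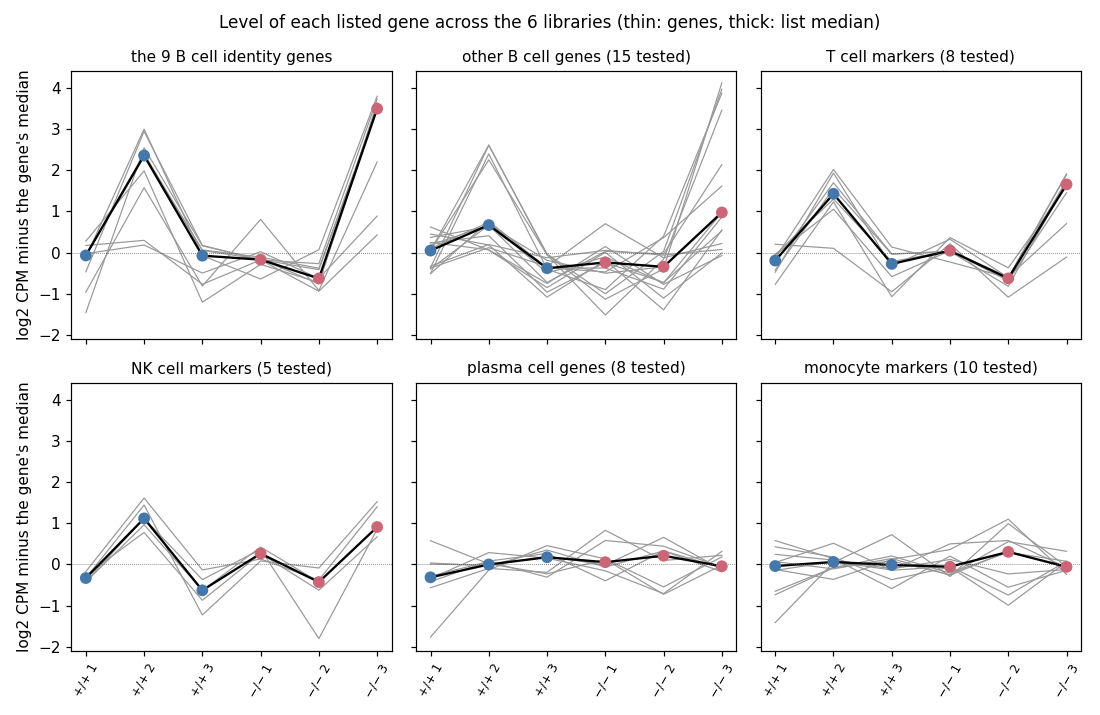
Log2 CPM of each tested gene minus its own median over the 6 libraries (thin lines), with the median of the list (thick line, points in blue for IL-4Rα+/+ and red for IL-4Rα-/-), for the 9 genes and 5 lists. The 9 genes, the T cell markers and the NK cell markers peak in IL-4Rα+/+ mouse 2 and IL-4Rα-/- mouse 3, while most plasma cell genes and monocyte markers do not.

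The genes outside all lists whose pattern was most like that of the 8 genes other than *Fcer2a* were found by Pearson's correlation of log2 CPM with their mean, over 6 libraries. They were *Cnn3*, *Gimap7*, *Chst3*, *Gimap6*, *Lax1*, *Gimap8*, *Ablim1*, *Lck*, *Prf1* and *Bend3*, with coefficients of 0.998 for *Cnn3* to 0.975 for *Bend3*. With 2 high and 4 low libraries, such a coefficient mostly says that a gene was high in the same 2, and it is given as a measure of likeness only. *Chst3*, a sulfotransferase, had the widest span among these 10 genes at 14.2-fold, with 5.57 CPM in IL-4Rα+/+ mouse 2, 9.47 CPM in IL-4Rα-/- mouse 3 and at most 1.36 CPM elsewhere. *Lck* and *Prf1* are genes of T and NK cells, and *Gimap6*, *Gimap7* and *Gimap8* encode GTPases of lymphocytes. *Fcer2a* itself had a coefficient of 0.966 with the mean of the other 8, and among those 8 *Cd79a* was closest to the mean and *Cd22* farthest, at 0.994 and 0.764. The mean includes each of those 8 genes but not *Fcer2a*, so their coefficients are raised by it and not comparable with that of *Fcer2a*.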

How the data were processed

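RNA sequencing of splenic monocytes from 6 mice, 3 per genotype, was used. Reads of 75 bp, single-end, were mapped to GRCm38 by the authors with STAR 2.6.1a, and raw counts per Gencode gene were deposited, 1 table per library. STAR's 4 summary lines, 21.1% to 22.8% of the reads, were left out. Symbols, positions and exon lengths came from Gencode M21, which held 55240 of the 55421 gene identifiers. Low genes were removed by filterByExpr (minimum count 10). TMM factors and the quasi-likelihood test came from edgeR 4.0.16 (R 4.3.3). P-values were adjusted over all genes tested after Benjamini and Hochberg, with the study's threshold of 0.15. The fit was tested on simulated data. DESeq2 1.42.0 was an alternative. The log2 CPM used a prior count of 2.

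Replicates of a genotype differed beyond sampling noise and none was merged. The 9 genes, the lists and the tests were chosen with earlier results of these data known. Named were the 9 genes, *Il4ra*, the further B cell genes, the 3 most abundant genes of each other list with any at an unadjusted p-value under 0.05, and the 10 genes most alike. Genes needed to describe a level were added. One gene of the lists is not reported here by name.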

Additional observations from a re-analysis of the deposited data

How the results depend on the processing

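The number of the 9 genes called was 0 in every alternative fit: other normalizations, immunoglobulin genes left out, no filter, a threshold of 0.05, sex as a covariate, the replicate block, DESeq2 and each library left out. The number of all genes called was 0 in each of these except DESeq2, with 80, and 0 whichever library was left out (0 to 0). *Fcer2a* had a log2 fold change of -0.026 under the replicate block. The numbers did not pair the libraries, since same-numbered mice had correlations of 0.185, -0.271 and -0.296 in their deviations from the group means, and no other of the 9 genes changed sign with the block. With sex as a covariate, the values were -0.36 for *Cd79a*, -0.51 for *Ms4a1*, -0.68 for *Pax5*, -0.72 for *Fcer2a*, -0.42 for *Cr2* and -0.16 for *Cd22*. Above 0 stayed *Cd79b* at 0.21, *Ebf1* at 0.04 and *Blk* at 0.48, and the cause was not tested. Without both libraries with the most B cell transcripts the log2 fold changes were -0.24 for *Cd79a*, -0.032 for *Cd79b*, -0.43 for *Ms4a1*, -0.12 for *Pax5* and -0.16 for *Fcer2a*. In that fit *Cd22* was at -0.29, *Cr2* at 0.14 and *Blk* at 1.06.

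With 1 library left out at a time, the log2 fold change ranged from -1.48 to 2.09 for *Cd79a*, -0.18 to 0.60 for *Cd79b*, -1.70 to 2.21 for *Ms4a1*, -1.89 to 2.43 for *Pax5*, -1.37 to 2.35 for *Ebf1*, -0.48 to 0.19 for *Cd22*, -1.95 to 2.46 for *Fcer2a*, -1.57 to 2.53 for *Cr2* and -0.25 to 2.08 for *Blk*. The level of *Fcer2a* relative to the other 8 genes differed between the genotypes by -0.49 to 0.33 over the same fits. Except for IL-4Rα+/+ mouse 2 and IL-4Rα-/- mouse 3, each library held at most 25 reads of *Fcer2a*, which limits what can be seen per B cell.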
